A study of Rattus norvegicus with 30 samples.

Results

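The genes of haemoglobin and of haem synthesis were followed in rat testes that matured in the animal and in testis explants that were kept in culture. The members are 8 genes of the 17322 in the deposited table: Hba1, Hbb and LOC100134871, which encode alpha and beta chains of haemoglobin, the erythroid genes Ahsp, Klf1 and Hemgn, and Alas1 and Alas2, the 2 forms of the first enzyme of haem synthesis. They were found by their Entrez Gene identifiers and all 8 had a row. The members had been selected on the loss of haemoglobin values in culture, so every contrast between cultured and uncultured tissue is given for them as a description, without a test. In a RefSeq gene table the identifier of Hba1 now carries the symbol Hba-a1 and that of LOC100134871 the symbol Hbbl1.

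Polyadenylated RNA was sequenced from whole testes of Wistar Han rats at 6 ages from 8.5 to 53.5 days postpartum (dpp; 8.5 and 14.5 dpp, then 24.5 and 30.5 dpp, then 36.5 dpp and 53.5 dpp) and from explants of 8.5 dpp testes. For the explants each testis was cut into 6 fragments, which were laid on agarose and kept in culture up to D6, D16, D22 or D28 (the number being days) in αMEM with gentamicin, Knock-out serum replacement, retinol and vitamin E. Each group held 3 libraries except 14.5 dpp, where 2 were used because the outlier library of that age is listed at 0 for all genes. The 17 in vivo libraries came from different, uncultured testes, and each cultured library pooled explants of several males from which the necrotic centre had been removed. In age, D6 matches 14.5 dpp, D16 matches 24.5 dpp, D22 matches 30.5 dpp and D28 matches 36.5 dpp, but both the age at removal and the culture set them apart from those testes.

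Haemoglobin is a tetramer of alpha and beta chains, each of which holds a haem group that binds oxygen. Developing red cells make it in bone marrow and spleen, and reticulocytes still carry globin mRNA when they enter the blood. Globin mRNA in a whole tissue can therefore come from the blood in its vessels. Haem itself is made by nearly all cells, in steps that start and end in the mitochondrion, and serves cytochromes such as the P450 enzymes of steroid synthesis in Leydig cells. Alas1 is the form of the first enzyme used by most tissues, and Alas2 is the form known from red cell precursors.

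The stretches of DNA just before the start of the 3 globin members and of both Alas genes are shown because the globin members moved together and the Alas genes moved apart. Each is the 200 bases before the start of the gene in RefSeq, build GRCr8, read in the direction of the gene. Capitals mark 3 short motifs known from globin promoters, each searched on both strands. The first is the GATA site, spelled AGATAA in one form and with a leading T (TGATAA) in the other. The next is the CACCC box, spelled as it is named, and so is the last, the CCAAT box. The Hba1 stretch is chr10:15842581-15842780 (minus strand), that of Hbb chr1:167663722-167663921 (minus strand) and that of LOC100134871 chr1:167650236-167650435 (minus strand). Those of Alas1 and Alas2 are chr8:115768643-115768842 (minus strand) and chrX:22895250-22895449 (plus strand).
Hba1: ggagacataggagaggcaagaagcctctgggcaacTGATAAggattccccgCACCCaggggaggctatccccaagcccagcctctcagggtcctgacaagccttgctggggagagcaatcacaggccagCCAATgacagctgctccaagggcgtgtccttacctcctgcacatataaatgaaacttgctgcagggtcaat
Hbb: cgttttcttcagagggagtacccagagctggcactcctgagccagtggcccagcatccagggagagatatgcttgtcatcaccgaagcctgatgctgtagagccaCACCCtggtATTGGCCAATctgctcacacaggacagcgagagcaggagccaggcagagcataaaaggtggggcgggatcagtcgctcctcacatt
LOC100134871: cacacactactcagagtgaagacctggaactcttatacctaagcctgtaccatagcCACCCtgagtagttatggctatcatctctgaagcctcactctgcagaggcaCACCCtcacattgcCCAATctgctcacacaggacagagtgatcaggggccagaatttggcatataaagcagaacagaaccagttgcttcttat
Alas1: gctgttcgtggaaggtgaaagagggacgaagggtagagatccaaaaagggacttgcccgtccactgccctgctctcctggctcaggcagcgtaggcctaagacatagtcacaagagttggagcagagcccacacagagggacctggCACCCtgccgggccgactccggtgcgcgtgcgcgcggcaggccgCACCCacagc
Alas2: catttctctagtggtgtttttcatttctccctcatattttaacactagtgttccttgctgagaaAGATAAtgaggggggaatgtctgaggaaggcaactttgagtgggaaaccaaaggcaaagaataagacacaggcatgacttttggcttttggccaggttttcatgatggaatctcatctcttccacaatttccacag

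All 3 globin stretches held both a CACCC box and a CCAAT box. The CCAAT box began 71 bases before the start of Hba1, 81 before that of Hbb and 79 before that of LOC100134871. Of 33469 RefSeq starts of the rat, 29.2% held a CCAAT box and 42.9% a CACCC box in a stretch of this length. A GATA site, held by 13.5% of all starts, was found before Hba1 (165 bases before the start) and before Alas2 (136 bases). Hbb also had the CCAAT letters on the other strand, 86 bases before the start. The Alas1 stretch held 2 CACCC boxes and no other motif, and 64.0% of its bases were G or C, compared with 41.5% before Alas2. Over these bases Hbb and LOC100134871 were 65.7% identical, Hba1 and Hbb 53.3%, and Alas1 and Alas2 45.2%. A match of letters is a description and does not show that a factor binds there. Among the members not shown, Klf1 had a GATA site 26 bases before its start, with 1 CACCC box and 1 CCAAT box. Hemgn had 2 GATA sites before 1 of its 2 starts. The stretch before Hba-a3, a further alpha globin gene, held 2 CCAAT boxes but no CACCC box and no GATA site. No entry for Ahsp was in the table used.

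All values below are FPKM as deposited, that is, reads scaled to the length of the transcripts and to the mapped reads of the library, and fold changes and their standard errors (SE) are on the log2(FPKM + 1) scale. A gene was called changed in a limma fit when its Benjamini-Hochberg adjusted p was at most 0.05 and the group medians differed at least 2-fold. No counts were analysed, and the number of reads behind a value is unknown. From the spacing of low values, relative depth could be read in 24 libraries and lay between 0.892 and 1.47. A value of 0 was not taken as absence, because 3 of 13 housekeeping genes looked up were listed at 0 in all 29 libraries. The third 24.5 dpp library stood apart from the other two of its age, with 22.4 FPKM of the Leydig cell enzyme Cyp17a1 against 203 and 128. By the study's methods the cultured replicates of a time point came from different males. Whether time points shared males is not given in the sources used here.

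Alpha globin mRNA was abundant in the youngest testes and fell with age. Hba1 measured 742, 617 and 777 FPKM at 8.5 dpp and 515 and 638 FPKM at 14.5 dpp, where it ranked between 20 and 31 among all genes of its library. The 24.5 dpp testes had 430, 126 and 160 FPKM, and the 30.5 dpp testes 101, 44.7 and 262 FPKM. At 36.5 dpp the values were 66.7, 89.9 and 31.3 FPKM, and at 53.5 dpp 11.5, 17.6 and 30.7 FPKM. No library of 24.5 dpp or later reached the lowest value of the 2 youngest ages, and the 53.5 dpp testes lay below all libraries of the earlier ages. The 53.5 dpp mean was 2.80% ± 1.38 of the 8.5 dpp mean (SD, n = 3).

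Beta globin followed the same course. Hbb had 697, 282 and 366 FPKM at 8.5 dpp, 243 and 388 FPKM at 14.5 dpp, and 305, 85.5 and 106 FPKM at 24.5 dpp. The values were 52.8, 26.1 and 162 FPKM at 30.5 dpp, 19.5, 30.9 and 13.3 FPKM at 36.5 dpp, and 10.0, 9.23 and 27.9 FPKM at 53.5 dpp. Neighbouring ages overlapped throughout, but every 53.5 dpp value lay below the lowest 8.5 dpp value. The 53.5 dpp mean was 3.51% ± 2.36 of the 8.5 dpp mean (SD, n = 3).

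LOC100134871, the further beta-like gene, was the least even of the 3. It measured 350, 300 and 667 FPKM at 8.5 dpp and 97.3 and 136 FPKM at 14.5 dpp, so the 2 youngest ages did not overlap. From 24.5 dpp on, 3 of the 12 in vivo libraries were listed at 0, 1 each at 24.5, 30.5 and 53.5 dpp. The others ranged down from 105 FPKM in the 24.5 dpp library that also had the most Hba1. Its share of the 2 beta rows ran from 0% to 64.6% over the in vivo libraries, with a median of 29.9%. Reads of near-identical globin copies can be split among them in more than 1 way, so the sum of the rows is firmer than each. A further alpha row, Hba-a3, had 42.6, 45.0 and 6.55 FPKM at 8.5 dpp and was listed at 0 in all 53.5 dpp libraries. The rows Hba-a2, Hbb-b1, Hbb-bs and Hbg1 were at 0 in all 29 libraries.

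**Figure D1:**
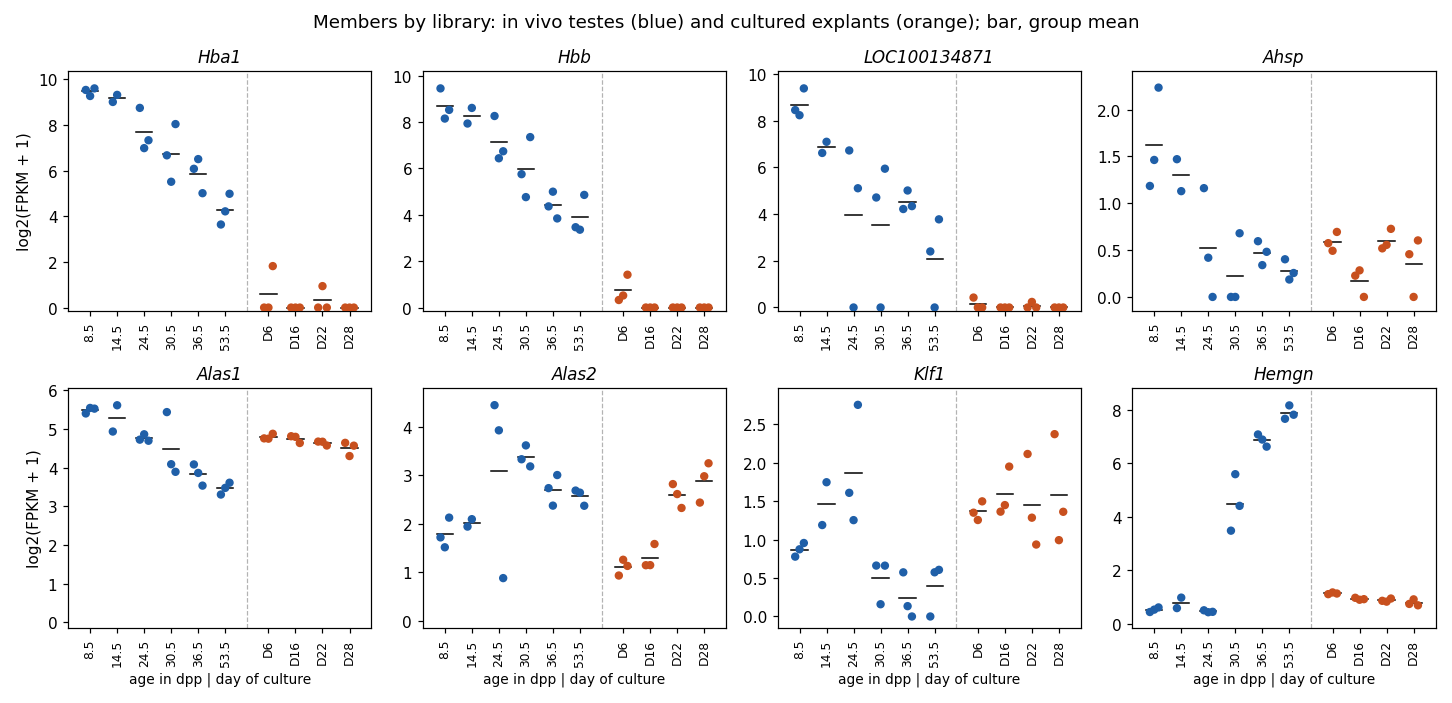
Each point is 1 library, with log2(FPKM + 1) on the y axis and age in dpp (blue, in vivo) or day of culture (orange) on the x axis, and the bar is the group mean. The 3 globin members step down over the in vivo ages and sit at or near 0 in all cultured libraries, Hemgn rises from 30.5 dpp on in vivo only, and Alas2 is higher at D22 and D28 than at D6 and D16.

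The fall of the globins with age was called from 24.5 dpp on, and up to 36.5 dpp some of the calls rested on single libraries. At 14.5 dpp none of the 8 members was called against 8.5 dpp, where 14.7% of the 12531 genes tested were called. At 24.5 dpp 4 members were lower (Hba1, Hbb, LOC100134871 and Ahsp) and Klf1 was higher, in a comparison that called 45.3% of genes (23.8% lower and 21.5% higher). At 30.5 dpp 5 were lower and 2 higher (63.3% of genes called, 38.2% lower and 25.2% higher), and at 36.5 dpp 5 were lower and 1 higher (68.7% called, 43.4% lower and 25.3% higher). The change of Hba1 at 24.5 dpp (-1.78 ± 0.59 SE, adjusted p = 0.0140) lost its call without the second library of that age (adjusted p = 0.0666). That of Hbb (-1.56 ± 0.64 SE, adjusted p = 0.0412) lost its call without 24.5 dpp library 2 or 3 (adjusted p = 0.151 and 0.117) or without 8.5 dpp library 1 or 3 (adjusted p = 0.154 and 0.0639), and narrowly without 36.5 dpp library 1 (adjusted p = 0.0502). LOC100134871 lost its call without 24.5 dpp library 2 at that age (adjusted p = 0.0928) and without 30.5 dpp library 2 at that age (adjusted p = 0.0510). Its call at 36.5 dpp was lost without 8.5 dpp library 3 or 36.5 dpp library 1 or 3 (adjusted p from 0.0544 to 0.0679) and, with a pseudocount of 0.1, those at 24.5 and 36.5 dpp were lost (adjusted p = 0.0619 and 0.149). At 53.5 dpp Hba1 fell by 5.19 ± 0.59 (SE, adjusted p = 7.88e-07) and Hbb by 4.81 ± 0.64 (SE, adjusted p = 4.67e-06), while LOC100134871 fell by 6.63 ± 1.59 (SE, adjusted p = 0.00122).

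Much else in the testis changed over the same ages. Of all genes tested, 73.9% were called between 53.5 and 8.5 dpp, 50.2% of them lower and 23.7% higher as shares of the genes tested, and the median of all genes was -0.74. Of the members 5 of 8 were lower, 1 was higher and 2 were not called, which is near that background. By size the globins were among the steepest: their 3 values lay 4.07 or more below the median of all genes on the log2 scale, and 125 of the 12531 genes (0.998%) had a change at or below that of Hbb. Genes of other cells fell as far, such as Amh, a product of immature Sertoli cells, which fell by 5.16 ± 0.33 (SE, adjusted p = 1.25e-09). Markers of other somatic cells were lower as well, with 9 of 11 endothelial, 5 of 7 macrophage and 5 of 7 Sertoli cell genes called lower and 1 macrophage gene higher. Of 6 Leydig cell genes 1 was called lower, and their median was -0.49. Summed endothelial markers went from 86.6 to 96.1 FPKM at 8.5 dpp to between 7.71 and 16.2 FPKM at 53.5 dpp, and their part in the fall of the globins was not tested. In RNA of whole tissue, fewer cells of a type and less RNA per cell cannot be told apart.

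Alpha and beta globin went broadly together over the in vivo testes, though not closely at every age, and replicates differed widely. Within an age, the highest and lowest Hba1 value differed most at 30.5 dpp (44.7 and 262 FPKM), and Hbb had its highest and lowest value there in the same 2 libraries. In 5 of the 6 ages the library with the most Hba1 also had the most Hbb, the exception being 8.5 dpp. There the highest and lowest value differed 1.26-fold for Hba1 and 2.47-fold for Hbb. At 53.5 dpp the lowest Hba1 value was in library 1 and the lowest Hbb value in library 2. The deviations of Hba1 and Hbb from their group means on the log2 scale had a Pearson correlation of 0.92 over the 17 libraries, which share depth within each library. For Hba1 and LOC100134871 it was 0.74. Such values were not limited to globins. For the 10 genes most like the globins, named below, the deviations correlated with those of summed Hba1 and Hbb at 0.74 (Arl4c) to 0.92 (Laptm5). These 10 were chosen by their correlation over the same libraries, so high values are partly fixed by that choice. The ratio of the 2 alpha rows to the 2 beta rows stayed between 0.749 and 1.91, with a median of 1.18, while the sums themselves spanned 11.5 to 784 FPKM for alpha. Within 53.5 dpp the ratio was uneven, at 0.802, 1.91 and 0.756.

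**Figure D2:**
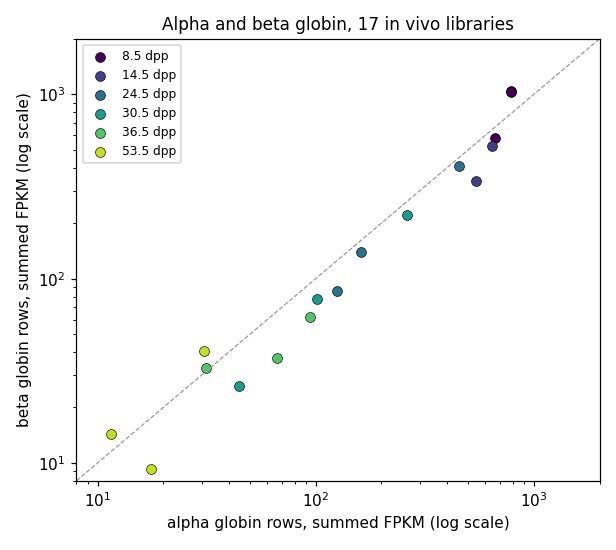
Each point is 1 of the 17 in vivo libraries, with the summed FPKM of the alpha rows (Hba1 and Hba-a3) on the x axis and of the beta rows (Hbb and LOC100134871) on the y axis, both on log scales, and the dashed line marks equal sums. The points run along the line from the 53.5 dpp testes at the lower left to the 8.5 dpp testes at the upper right, with ratios between 0.749 and 1.91.

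In culture the globins were all but gone at the first time point. At D6 Hba1 was listed at 0, 0 and 2.52 FPKM, Hbb at 0.251, 0.432 and 1.66 FPKM, and LOC100134871 at 0.343, 0 and 0 FPKM. The lowest 8.5 dpp testis, the age at which the explants were taken, had 245 times the highest D6 value of Hba1 and 170 times that of Hbb. The third D6 library held the highest value of both genes. From D16 to D28 Hbb was at 0 in all 9 libraries, Hba1 in 8 and LOC100134871 in 8, with the exceptions at D22 (0.918 and 0.179 FPKM). The summed 4 globin rows took 0.378% to 0.561% of all FPKM at 8.5 dpp and at most 0.00132% in any cultured library.

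The globin level of cultured tissue lay below that of the oldest testes too. At 53.5 dpp the lowest Hba1 value was 4.54 times, and the lowest Hbb value 5.55 times, the highest value at D6. LOC100134871 overlapped between these groups because 1 of the 53.5 dpp libraries was at 0. As a sum, endothelial markers did not share this course: their level was 82.5 to 165 FPKM in the 12 cultured libraries and 65.9 to 96.1 FPKM in the 5 testes of 8.5 and 14.5 dpp. Singly, 5 of 11 tested were higher at D6 against 8.5 dpp (16.3% of genes called) and none was lower. At D28 against 14.5 dpp (15.3% called) 4 of 12 were higher and 1 was lower. Markers of other blood cells were mixed. At D6 against 8.5 dpp, where 16.3% of 11216 genes were called, 3 of the 4 lymphocyte genes reported here and tested were higher (Cd3e, Cd2 and Nkg7). The summed level of the genes reported was 2.04 to 2.48 FPKM at 8.5 dpp and 4.13 to 7.13 FPKM at D6. Against 14.5 dpp, 3 of 5 lymphocyte genes tested were lower at D16, 3 at D22 and 2 at D28, and none was higher. Those comparisons called 13.0%, 13.8% and 15.3% of 11517 genes (6.14%, 5.99% and 6.88% lower). Granulocyte genes summed to 2.17 to 2.41 FPKM at 8.5 dpp and to 0.989, 0.873 and 5.26 FPKM at D6. In the third D6 library, the one with the most Hba1 and Hbb, the granule genes Np4 (3.00 FPKM) and Elane (0.336 FPKM) were above 0, and they were at 0 in the other 28. These 2 were picked from 12 granulocyte genes after the values were seen, and others of the list did not share this. S100a8, Camp and Retnlg were at 0 in all 29 libraries, and Ltf and Cxcr2 in all 12 cultured ones. Ngp ranged from 0.357 to 0.877 FPKM in culture. Of 7 platelet genes 4 were at 0 in all 29 libraries.

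The 18 erythroid markers beside the members went several ways in culture. At D6 against 8.5 dpp, where 16.3% of 11216 genes were called, 1 of 6 tested was higher (Aqp1) and 1 lower (Tmcc2). Aqp1 is a water channel that endothelium also carries. Rhag and Gata1 were at 0 in all 29 libraries. Kel, Car1 and Gfi1b were at 0 in all 12 cultured libraries and at most 0.264 FPKM in vivo. At D16 against 14.5 dpp, where 13.0% of 11517 genes were called, 4 of 8 were higher and Tmcc2 was again lower. The 4 were Aqp1, Tal1, Nfe2 and Epor, the erythropoietin receptor, which had 0.352 to 0.815 FPKM in culture and 0.0711 to 0.318 FPKM at 8.5 and 14.5 dpp. At D22 and at D28 against 14.5 dpp, 2 of the 8 were higher and 1 lower, where 13.8% and 15.3% of genes were called. Slc4a1, the band 3 anion exchanger of the red cell membrane, lay under the limit for testing. It measured 0.117 to 0.563 FPKM in the 8 testes of 8.5 to 24.5 dpp and 0.0112 to 0.0637 FPKM in the 12 cultured libraries, without overlap, but 0 to 0.0490 FPKM in the older testes.

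Ahsp, the chaperone that holds free alpha chains, was low everywhere. It had 1.27, 1.75 and 3.70 FPKM at 8.5 dpp, 1.77 and 1.19 FPKM at 14.5 dpp, and 1.24, 0.337 and 0 FPKM at 24.5 dpp. No testis of 30.5 dpp or older and no cultured library exceeded 0.655 FPKM. At 53.5 dpp it was lower than at 8.5 dpp by 1.35 ± 0.29 (SE, limma adjusted p = 0.000541). Cultured values did not follow the globins to 0: they ran from 0 to 0.655 FPKM, and at D6 (0.489, 0.407 and 0.617 FPKM) all 3 lay above the 53.5 dpp testes (0.321, 0.138 and 0.194 FPKM).

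Klf1 and Hemgn, genes named for red cell development, did not keep to the globin pattern. Klf1, a zinc finger factor that activates beta globin, had 0.714, 0.831 and 0.938 FPKM at 8.5 dpp and 2.05, 1.38 and 5.73 FPKM at 24.5 dpp. It was at most 0.582 FPKM in all 9 testes of 30.5 dpp and older. In culture it was kept, with 1.55, 1.38 and 1.82 FPKM at D6 and 4.17, 0.989 and 1.57 FPKM at D28. The rise at 24.5 dpp (1.0 ± 0.31 SE, limma adjusted p = 0.0104) rested on the third library and missed the call without it (0.56, adjusted p = 0.0511). That library also had more Amh (59.5 FPKM against 25.4 and 18.2). Gata1, the leading erythroid regulator, was listed at 0 in all 29 libraries.

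Hemgn, a nuclear protein of blood cell precursors, climbed by the largest amount of the 8 members. It had 0.357 to 0.978 FPKM in the 8 testes of 8.5 to 24.5 dpp. The 30.5 dpp testes had 10.2, 47.1 and 20.2 FPKM, the 36.5 dpp testes 133, 117 and 97.0 FPKM, and the 53.5 dpp testes 200, 284 and 223 FPKM. From 30.5 dpp on the ages did not overlap, and the 53.5 dpp value was higher than that of 8.5 dpp by 7.34 ± 0.35 (SE, limma adjusted p = 4.98e-11). Spermatid genes moved with it: at 30.5 dpp the protamine gene Prm1 had 8.75, 151 and 29.5 FPKM and the transition protein gene Tnp1 80.2, 423 and 164 FPKM, in the same order of libraries as Hemgn. Their part in the level of Hemgn was not tested. In culture Hemgn stayed at 0.622 to 1.26 FPKM and Prm1 was at 0 in all 12 libraries.

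The 2 Alas genes differed in level and in course. Alas1 had 41.3, 45.7 and 45.2 FPKM at 8.5 dpp and 8.88, 10.1 and 11.2 FPKM at 53.5 dpp, a fall of 2.03 ± 0.31 (SE, limma adjusted p = 1.73e-05). The ages between stepped down, with 29.6 and 48.0 FPKM at 14.5 dpp, 25.5, 28.1 and 24.9 FPKM at 24.5 dpp, 42.4, 16.0 and 13.9 FPKM at 30.5 dpp and 16.0, 13.6 and 10.6 FPKM at 36.5 dpp. In culture its level was steady, at 26.1, 25.9 and 28.4 FPKM at D6, 27.1, 26.8 and 23.9 FPKM at D16, 24.6, 24.5 and 22.8 FPKM at D22 and 24.0, 18.7 and 22.8 FPKM at D28. The D28 values lay below all 5 testes of 8.5 and 14.5 dpp and above the 3 testes of matched age. No cultured time differed from D6 by the rule, and the D28 difference was -0.29 ± 0.10 (SE, limma adjusted p = 0.0544).

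Alas2 changed during culture while the globins did not return. It had 0.909, 1.39 and 1.19 FPKM at D6 and 1.21, 1.21 and 1.99 FPKM at D16, and then 6.05, 5.11 and 4.01 FPKM at D22 and 4.41, 6.88 and 8.49 FPKM at D28. The 6 later libraries all lay above the 6 earlier ones. Against D6 the increase was 1.48 ± 0.21 at D22 (SE, limma adjusted p = 0.000925) and 1.78 ± 0.21 at D28 (SE, adjusted p = 0.000249). The first comparison called 4.81% of 11358 genes (2.67% higher) and the second 5.69% (3.04% higher). Of the 8 members 4 passed the limit for testing in culture (Alas1, Alas2, Klf1 and Hemgn), and Alas2 alone was called. D16 did not differ from D6 (0.18 ± 0.21 SE, adjusted p = 0.580) in a comparison that called 3.00%.

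In vivo, Alas2 was higher after 14.5 dpp in most testes. It had 2.29, 1.86 and 3.37 FPKM at 8.5 dpp, 2.84 and 3.27 FPKM at 14.5 dpp, and 20.8, 14.2 and 0.839 FPKM at 24.5 dpp. The later ages had 9.05, 11.3 and 8.08 FPKM (30.5 dpp), 5.65, 4.18 and 7.02 FPKM (36.5 dpp) and 5.43, 5.24 and 4.17 FPKM (53.5 dpp). All 9 testes of 30.5 dpp and older lay above all 5 of 8.5 and 14.5 dpp. The increase was called at 30.5 dpp alone (1.59 ± 0.62 SE, limma adjusted p = 0.0282), and missed the call when either of the first 2 libraries of 8.5 or of 30.5 dpp was left out (adjusted p from 0.0532 to 0.0771). Its F test over the ages, a test that called 85.2% of genes, missed the threshold (adjusted p = 0.181). Without the third 24.5 dpp library, which had the lowest Alas2 of all testes and the low Leydig cell genes, the increase at 24.5 dpp was 2.40 (adjusted p = 4.79e-07) and that at 53.5 dpp was also called (adjusted p = 0.00228). Whether the Leydig cells of that library bear on its Alas2 was not tested. In culture the summed Leydig markers were 12.7 to 36.8 FPKM, against 145 to 330 FPKM at 8.5 and 14.5 dpp.

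Most enzymes after Alas fell in vivo, and none was called changed in culture. Of the 6 genes listed here (Alad, Uros, Urod, Cpox, Ppox and Fech), 4 were lower at 53.5 than at 8.5 dpp (Urod, Cpox, Ppox and Fech) and none was higher, beside 50.2% of all genes lower, and the median of the 6 was -2.22 against -0.74 for all genes. Ppox, the last enzyme but 1, was the least steady in culture, with 6.95, 8.40 and 6.89 FPKM at D6 and 4.75, 4.91 and 4.51 FPKM at D28, against 8.10 to 9.87 FPKM at 8.5 dpp. Fech, ferrochelatase, which puts iron into the ring, had 15.8, 14.6 and 15.5 FPKM at 8.5 dpp and 2.15, 1.91 and 2.15 FPKM at 53.5 dpp (-2.41 ± 0.11 SE, limma adjusted p = 3.15e-11). In culture it stayed between 8.98 and 12.5 FPKM. Urod, the decarboxylase in the middle of the pathway, fell from 26.8, 35.4 and 37.8 FPKM to 4.52, 6.15 and 3.35 FPKM in vivo, and had 47.9, 33.7 and 41.3 FPKM at D28.

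None of the 6 enzymes was called at D6 against 8.5 dpp. None was called at D16, D22 or D28 against 14.5 dpp either (13.0%, 13.8% and 15.3% of all genes) or at any later culture time against D6. At an adjusted p of at most 0.05 without the 2-fold limit, 7 of 27 tested genes of the 3 lists of haem genes differed between D28 and D6 (23.7% of all genes), 12 of 27 between D28 and 14.5 dpp (41.1% of all genes) and 17 of 26 between D6 and 8.5 dpp (47.4% of all genes). The summed level of the 6 was 77.0 to 88.4 FPKM in the 5 testes of 8.5 and 14.5 dpp, 70.5 to 92.5 FPKM in the 12 cultured libraries and 12.7 to 14.2 FPKM at 53.5 dpp. The change from D6 to D28 in culture differed from the change between 14.5 and 36.5 dpp in vivo for 5 of the 6 enzymes. All 5 differed toward higher values in culture, in a limma interaction test that called 57.2% of 12482 genes (38.0% higher). With quantile scaling Uros and Ppox lost the call. Alad, the second enzyme, was uneven, with 7.41, 0 and 0 FPKM at 8.5 dpp and 13.0, 0 and 10.7 FPKM at D28.

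**Figure D3:**
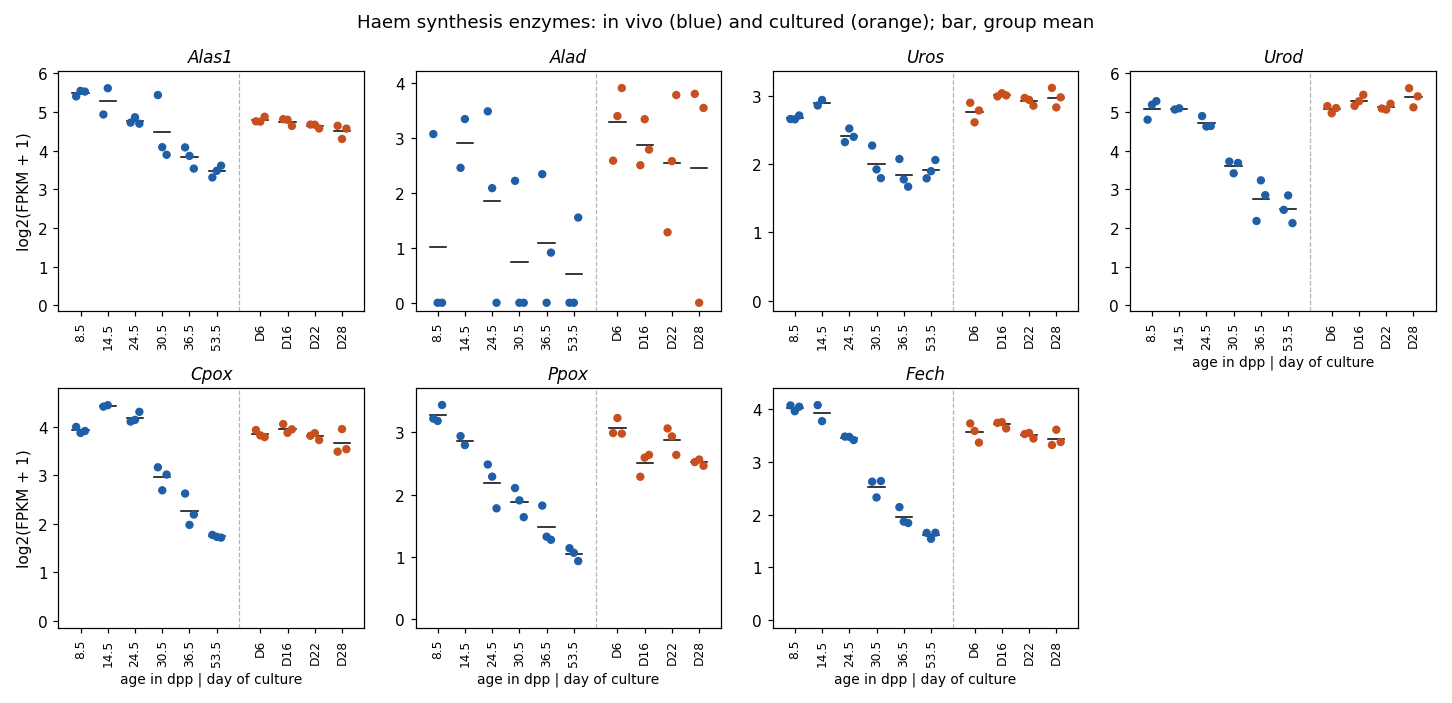
Each panel is 1 enzyme of haem synthesis, Alas1 first and Fech last, with 1 point per library, log2(FPKM + 1) on the y axis, age in dpp (blue) or day of culture (orange) on the x axis and a bar at the group mean. The panels after Alad step down over the in vivo ages and stay near their D6 level in culture, except that Ppox is lower at D16 and D28 than at D6, while Alad is at 0 in libraries of most groups.

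Genes that bring iron and substrates to the pathway went several ways in vivo. Of 10, 4 were higher at 53.5 than at 8.5 dpp and 5 lower, beside 23.7% and 50.2% of all genes. Slc25a37 (mitoferrin 1), the mitochondrial iron carrier known from red cells, rose from 1.80, 2.14 and 2.27 FPKM to 17.7, 18.2 and 13.4 FPKM (2.5 ± 0.19 SE, limma adjusted p = 8.40e-09). The glycine carrier Slc25a38 rose by 1.48 ± 0.13 (SE, adjusted p = 3.92e-08), and Tmem14c, a porphyrin carrier, fell by 2.51 ± 0.14 (SE, adjusted p = 3.31e-10). Of the 10, 1 gene was called at D6 against 8.5 dpp, where 16.3% of all genes were called. It was Tfrc, the transferrin receptor that takes up iron. It had 32.2, 28.9 and 26.8 FPKM at 8.5 dpp and 107, 115 and 68.0 FPKM at D6 (1.66 ± 0.20 SE, adjusted p = 0.000652). The 14.5 dpp testes, of matched age, had 67.2 and 101 FPKM, and at D16, D22 and D28 none of the 10 was called against them.

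Genes that break down haem or clear haemoglobin were followed as well. Hmox1, haem oxygenase 1, which opens the haem ring, had 36.1, 31.3 and 31.4 FPKM at 8.5 dpp and 74.3, 66.0 and 81.4 FPKM at D6 (1.14 ± 0.11 SE, limma adjusted p = 0.000248). Blvrb, a biliverdin reductase, had 5.99, 7.27 and 8.83 FPKM and 14.8, 17 and 20.8 FPKM in the same groups (1.15 ± 0.16 SE, adjusted p = 0.00144). These were the 2 genes called of 10 tested, both higher, in a comparison that called 16.3% of 11216 genes (9.89% higher). Hmox1 had 35.8, 44.0 and 54.3 FPKM at D16, where it was not called against 14.5 dpp. It was called at D22 (1.13 ± 0.17 SE, adjusted p = 0.00106) and at D28 (111, 83.7 and 99.5 FPKM, 1.41 ± 0.17 SE, adjusted p = 0.000278). Abcg2, an exporter of porphyrins, had 3.49 and 3.32 FPKM at 14.5 dpp and 1.12, 1.84 and 1.27 FPKM at D28 (-0.88 ± 0.18 SE, adjusted p = 0.00465). Of 11 genes tested against 14.5 dpp, 1 was lower at D16, 1 higher at D22, and 1 higher and 1 lower at D28. Those comparisons called 13.0%, 13.8% and 15.3% of all genes. Macrophages express Hmox1 and Blvrb, and 2 of 7 macrophage markers tested were also higher at D6; their part was not tested.

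Cd163, the macrophage receptor for haemoglobin bound to haptoglobin, was listed at 0 in all 12 cultured libraries. In vivo it was above 0 in 16 of 17 libraries, with 0.248, 0.0497 and 0 FPKM at 8.5 dpp, 0.242 and 0.455 FPKM at 14.5 dpp and at most 2.07 FPKM, at 30.5 dpp. Other macrophage genes were present in culture, where the summed list had 71.5 to 152 FPKM against 39.5 to 75.2 FPKM at 8.5 and 14.5 dpp. Hp, which encodes haptoglobin, the plasma protein that binds free haemoglobin, had 6.05 to 8.63 FPKM in the cultured libraries. In vivo it lay between 2.99 and 5.57 FPKM up to 36.5 dpp and at 22.2, 22.4 and 40.9 FPKM at 53.5 dpp.

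**Figure D4:**
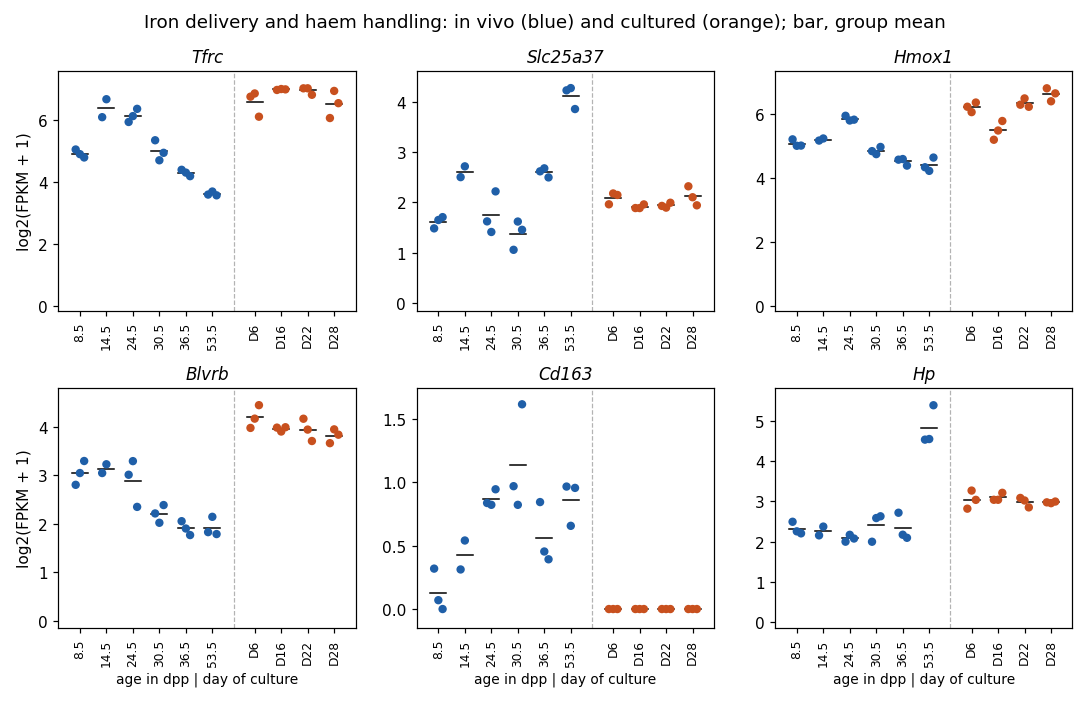
Each panel is 1 gene with 1 point per library, log2(FPKM + 1) on the y axis, age in dpp (blue) or day of culture (orange) on the x axis and a bar at the group mean. Tfrc and Blvrb sit higher in all cultured libraries than in the 8.5 dpp testes, and so does Hmox1 except in 1 D16 library, Cd163 is at 0 in all 12 cultured libraries, and Slc25a37 and Hp are highest at 53.5 dpp.

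Other globin rows and Aqp1 differed among themselves. Cygb, cytoglobin of fibroblast-like cells, had 14.4, 13.3 and 12.3 FPKM at 8.5 dpp and 30.6, 25.5 and 34.6 FPKM at D6 (1.11 ± 0.13 SE, limma adjusted p = 0.00052). It stayed at 18.8 FPKM or more in the other cultured libraries, above all testes. Aqp1, the water channel of red cells that endothelium also carries, had 1.06 to 1.3 FPKM at 8.5 dpp and 8.67 to 10.9 FPKM at D6 (2.33 ± 0.10 SE, adjusted p = 1.83e-05). Mb, myoglobin, had 1.06, 0.973 and 0.713 FPKM at 8.5 dpp, was listed at 0 in both 14.5 dpp testes and had 0.165, 0 and 0 FPKM at D6. Hbe1, an embryonic globin row, was at 0 in all testes of 8.5 and 14.5 dpp and in all cultured libraries, and had 2.94, 5.84 and 3.92 FPKM at 53.5 dpp.

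Genes most like the globins in vivo were sought by the Pearson correlation of log2(FPKM + 1) with the sum of Hba1 and Hbb over the 17 in vivo libraries, among 12523 genes. The 10 highest were Tgfbi, Fcer1g, Laptm5, Igfbp7, Itm2a, Rnase4, Igfbp2, Arl4c, Steap3 and Fcgrt, with correlations from 0.96 to 0.98. Such values were common, since 2169 genes reached 0.9 or more over these ages. In culture the 10 parted from the globins. Tgfbi, a matrix protein, had 8.69 to 9.34 FPKM at 8.5 dpp and 8.14 to 19.6 FPKM over the cultured libraries. Igfbp7, a secreted binding protein of vessels and stroma, had 327 to 401 FPKM at 8.5 dpp and 238 to 436 FPKM in culture. Of the members, Alas1 had a correlation of 0.85 with the globins, Ahsp 0.75, Klf1 0.57, Alas2 -0.26 and Hemgn -0.89.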

How the data were processed

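Libraries of stranded polyA RNA were sequenced with 50 bp single reads. Per the submitters' notes and the study's methods, the authors aligned them with STAR 2.5.2a to rn6, quantified transcripts with StringTie and Ballgown, and deposited FPKM values (named RPKM in the study) per Entrez Gene ID. FPKM are scaled to the mapped reads of a library, so a gene's value also depends on all other genes, and read depth is unknown.

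Of 30 libraries, 29 were used. Values were tested as log2(FPKM + 1) with limma 3.58.1 (lmFit, eBayes) in R 4.3.3, leaving out genes whose group medians were all under 0.5 FPKM, with Benjamini-Hochberg adjustment over all genes tested. Calls needed an adjusted p of at most 0.05 and a 2-fold difference of medians. Tests were tested on simulated data. In vivo ages, culture times, culture (D16, D22, D28) against 14.5 dpp, D6 against 8.5 dpp, and the change D6 to D28 against 14.5 to 36.5 dpp were fitted. The named genes are the 8 members, genes of lists of haem, globin and cell type genes that were called or are abundant, and the 10 most like Hba1 and Hbb. Members, lists and tests were chosen with earlier results of these data known. Slc4a1, Gata1, Np4, Elane, Prm1, Tnp1, Amh and Cyp17a1 were picked from these lists after their values were seen. Symbols and upstream bases came from RefSeq (GRCr8), whose build differs from rn6, so no other coordinates were printed. Sequences were aligned with Biopython 1.88. Replicate numbers were not used to pair libraries in the main fits. Of 40 pairs of same-numbered in vivo libraries, 2 had deviations correlated above 0.1 (range -0.07 to 0.15). So had 5 of 18 between culture times (range -0.13 to 0.22) and 3 of 15 with 14.5 dpp included (range -0.04 to 0.19). Libraries with different numbers were not compared, so these values cannot show whether time points shared males. Protein sequences were not used here, and 2 genes of the lists are not reported here.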

Additional observations from a re-analysis of the deposited data

Results flagged for a closer look

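The haem genes were compared for their change from D6 to D28 in culture and from 14.5 to 36.5 dpp in vivo, in 1 limma fit with an interaction term, in which 57.2% of 12482 genes were called. The 8 members were not tested here. The difference was taken as culture minus in vivo on the log2 scale. Of all genes 38.0% were called with a positive and 19.3% with a negative difference, and the median of all genes was 0.63. The difference was past the threshold in 16 of the 27 listed genes tested, which is near the share of all genes.

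Among the enzymes of haem synthesis it was 1.27 for Uros, 2.63 for Urod, 1.98 for Cpox, 0.85 for Ppox and 1.85 for Fech, and each of the 5 had a negative change in vivo. Urod, for example, changed by -2.33 in vivo and by 0.31 in culture. Among the genes of supply it was 1.90 for Tmem14c, 2.03 for Tfrc, 1.86 for Tspo and 1.19 for Glrx5, and -1.19 for Slc25a38, -1.06 for Abcb6 and -1.40 for Clpx, the last 3 with a positive change in vivo. Among the genes of haem breakdown and sensing it was 1.09 for Hmox1, 2.30 for Flvcr2 and 1.38 for Eif2ak1, and -1.45 for Hmox2. With quantile scaling 12 of the listed genes were called, and Uros, Ppox, Glrx5 and Hmox1 lost the call. With upper quartile scaling 14 were called, and Ppox, Glrx5 and Hmox1 lost it. Some of the calls of Ppox, Abcb6, Glrx5 and Hmox1 were also lost when 1 library was left out.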

How the results depend on the processing

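Depth is unknown, groups hold 2 or 3 libraries, and low genes move by steps of few reads. The fall of Hba1, Hbb, LOC100134871, Alas1 and Ahsp and the rise of Hemgn at 53.5 dpp, and the rise of Alas2 at D22 and D28, kept their direction and call under all settings tried: another pseudocount (0.1), no filter, quantile or upper quartile scaling, all 10 groups in 1 fit, the replicate block, a robust prior, no 2-fold limit, and each library left out. Scaling moved the median of all genes at 53.5 dpp from -0.74 to -0.35 (quantile) or -0.43 (upper quartile).

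Without the 2-fold limit 2385 instead of 734 genes were called over culture times, 3867 instead of 1868 against 14.5 dpp and 5319 instead of 1826 at D6. The listed haem genes called then were 7 instead of 0 (D28 against D6), 12 instead of 2 (D28 against 14.5 dpp) and 17 instead of 3 (D6 against 8.5 dpp). Quantile scaling turned the 14.5 dpp change of Hba1 to 0.15. With 1 library left out that of Alas1 ranged from -0.56 to 0.12, and against D6 that of Alas1 at D16 from -0.077 to 0.010 and those of Klf1 from -0.26 to 0.33 (D22) and from -0.19 to 0.50 (D28). None of these was called, and the cause was not tested. Of 1864 alternative values of 84 called changes of members and named genes, 66 lost the call and none turned. With a pseudocount of 0.1, Klf1 at 24.5 dpp lost its call (adjusted p = 0.102). Hbb at 24.5 dpp lost it in 4 of the 8 other settings (adjusted p from 0.0524 to 0.0894). The fall of Alas1 at 30.5 dpp lost it without 30.5 dpp library 2 or 3. Alas2 at 53.5 dpp gained one with quantile scaling (adjusted p = 0.0285). The replicate block left 20 listed haem genes called at 53.5 dpp and 16 in the interaction fit, as without it, and 10669 genes over the in vivo ages instead of 10681. The D6 to 8.5 dpp pairs of libraries correlated at -0.10 to -0.09. The 53.5 dpp level of each globin moved by less than its SD with medians, with upper quartile scaling over all genes or over genes within 2-fold in vivo, and with each library left out. That limit is wide beside the levels, such as 1.29% ± 1.47 of the 8.5 dpp mean for LOC100134871 (SD, n = 3). Large shifts would have passed it.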
